A study of Mus musculus with 6 samples.

Results

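Digestive enzymes that the acinar cells of the exocrine pancreas make and secrete were followed in mouse spleen: the amylases Amy2a5 and Amy1, the lipid-digesting proteins Cel, Pnlip, Pnliprp1, Pnliprp2, Clps and Pla2g1b, and the carboxypeptidases Cpa1 and Cpb1. These 10 genes were listed by name, and a gene was taken as measured where the array annotation gave a probe that symbol alone. That held for 7 of the 10, out of 17848 genes so named on the array, each by 1 probe: Amy2a5, Cel, Clps, Pla2g1b, Pnliprp2, Cpa1 and Cpb1. Amy1 and Pnliprp1 were annotated only on probes that carry several symbols, and no probe of the annotation table was found for Pnlip. The list was drawn up after a control against Pb comparison of these arrays had shown exocrine genes to be higher, so that contrast is given here for the 7 genes as a description, with no test.

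Acinar cells store their enzymes as granules and release them into the duct after a meal. Amylase cuts starch. Pancreatic lipase, which needs its cofactor colipase (Clps) at the surface of a fat droplet, splits triglycerides, the phospholipase A2 of pancreatic juice (Pla2g1b) splits phospholipids, and the bile salt-stimulated lipase (Cel) splits cholesterol esters and other lipids. Carboxypeptidases remove amino acids from the C-terminal end of peptides that trypsin, chymotrypsin and elastase have cut, Cpa1 taking aromatic and branched residues and Cpb1 basic ones. The spleen is a lymphoid and blood-filtering organ that is not known as a source of these enzymes, and the tail of the pancreas lies next to it.

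The RNA was total RNA from spleens of female BALB/c mice at 21 days of age, measured on CodeLink whole genome arrays in 1 colour (Cy5). The 3 controls were compared with 3 mice that had received 0.1 mM Pb (lead) since gestation day 8, each mouse on its own array. The labels name no route of Pb, no litters and no pooling, and p-values measure the spread between these samples. Values are log2 intensities relative to an array median of about 0, after the smooth part of each array's brightness over position had been removed. Each value is that of 1 array from 1 labelled animal. In bulk tissue a change in the number of cells of a type cannot be told apart from a change in RNA per cell.

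The arrays were not equally good. Across probes the third Pb array had an r of 0.05 with each control, against 0.95 between controls, so it was left out and gene values rest on 3 control and 2 Pb arrays. Pb replicate 2 had an r of 0.66 to 0.67 with the controls as deposited and at least 0.92 after position correction, and its remaining scatter was the widest (a robust SD of 0.59, where the other arrays had 0.31 to 0.39). For the tissue itself, 14 of 16 listed markers of B cells, T cells, red pulp and stroma were measured and all 14 passed the filter on dim probes. Their summed linear intensity after position correction lay between 286 and 313 in controls, and the Pb arrays had 315 and 299. Cxcl13, the chemokine that draws B cells into follicles, lay between 5.64 and 6.01 in the 5 arrays after correction. This nearness rests on the correction. As deposited, Cxcl13 was 58.7, 62.4 and 66.6 in controls and 7.06 in Pb replicate 2, which the correction raised by 2.82 on the log2 scale. The T cell marker Cd3e was at 1.53, 1.30 and 1.53 in controls, with 2.13 and 2.25 in Pb. Its log2 difference was 0.73 (SE 0.17, limma adjusted p = 0.621), while that of Cd8a was -0.26 (SE 0.24). Cd3g, another CD3 chain, lay outside the rule for named genes. It was brighter, with a control mean of 5.22, and its log2 difference was 0.00 (SE 0.20). The summed intensity is carried by the brightest markers and says little of a dim one such as Cd3e.

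The sequences just upstream of these genes are shown as background. Transcription itself was not measured, and why several of the genes were high together was not tested. Acinar genes are known to be driven by PTF1, a complex that reads an E-box together with a TTTCCC-type box. The following are the 250 bases before the annotated start, 5′ to 3′, from RefSeq on GRCm38.p6 (a C57BL/6J genome, whereas the mice were BALB/c). Of the 7 measured genes 6 had an entry. Those of 4 enzymes that were higher in Pb are printed beside Pnliprp2, which did not separate the groups after position correction. Capitals mark the E-box letters CACCTG, the second PTF1 box written as TTTCCC, or the TATA box written as TATAAA, each on either strand. Read from the opposite strand, the E-box appears as CAGGTG, while the second box then appears as GGGAAA.
Amy2a5, chr3:113258700-113258949, minus strand: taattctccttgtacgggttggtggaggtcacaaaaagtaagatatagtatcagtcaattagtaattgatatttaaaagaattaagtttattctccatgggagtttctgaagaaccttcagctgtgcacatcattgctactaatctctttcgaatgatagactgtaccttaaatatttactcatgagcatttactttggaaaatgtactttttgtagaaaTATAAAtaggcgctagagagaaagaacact
Cpa1, chr6:30638968-30639217, plus strand: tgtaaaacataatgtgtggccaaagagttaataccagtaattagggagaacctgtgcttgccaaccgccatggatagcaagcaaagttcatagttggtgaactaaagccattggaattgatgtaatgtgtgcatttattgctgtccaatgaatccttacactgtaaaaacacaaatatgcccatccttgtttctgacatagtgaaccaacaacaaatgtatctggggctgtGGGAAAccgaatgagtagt
Cpb1, chr3:20275734-20275983, minus strand: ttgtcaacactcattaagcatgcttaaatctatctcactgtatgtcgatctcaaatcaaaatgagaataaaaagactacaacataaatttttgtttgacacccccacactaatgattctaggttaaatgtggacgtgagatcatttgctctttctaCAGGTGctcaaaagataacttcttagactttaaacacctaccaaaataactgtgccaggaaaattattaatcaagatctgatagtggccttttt
Cel, chr2:28563404-28563653, minus strand: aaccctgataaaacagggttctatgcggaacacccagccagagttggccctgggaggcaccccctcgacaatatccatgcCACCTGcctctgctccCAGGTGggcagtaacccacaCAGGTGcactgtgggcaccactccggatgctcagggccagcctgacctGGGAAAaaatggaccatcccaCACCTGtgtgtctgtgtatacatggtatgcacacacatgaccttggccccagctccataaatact
Pnliprp2, chr19:58759473-58759722, plus strand: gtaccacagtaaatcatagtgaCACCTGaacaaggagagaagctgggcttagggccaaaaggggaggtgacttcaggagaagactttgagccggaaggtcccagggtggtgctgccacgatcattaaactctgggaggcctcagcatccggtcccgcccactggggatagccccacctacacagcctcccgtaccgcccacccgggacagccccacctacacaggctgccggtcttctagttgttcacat

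The E-box letters CACCTG occurred 4 times upstream of Cel, once each upstream of Cpb1 and Pnliprp2, and in neither Amy2a5 nor Cpa1, while 17.2% of all 32851 annotated promoter windows of 250 bases held them. In Cel the CACCTG at positions -65 to -60 followed a GGGAAA at -86 to -81, counted back from the start. TTTCCC was found once each in Cel and Cpa1 (21.9% of all windows held it). TATAAA was found once in Amy2a5, at -30 to -25 (12.4% of all windows). The looser E-box CANNTG, which includes every CACCTG, was present in all 5 windows and in 66.2% of all windows, so it sets none of them apart. The upstream window of Pla2g1b held none of these 4 motifs. A match of letters is not a site of binding, and the gene without separation, Pnliprp2, held a CACCTG like Cpb1.

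After position correction, 6 of the 7 measured genes were higher in both Pb arrays than in all 3 control arrays, and Pnliprp2 was not. The share of all 34949 probes with that pattern was 13.0%. The median log2 difference of the 7 genes was 3.36, against 0.03 over all probes. All 7 probes passed the filter on dim probes, which uses the mean over all 5 arrays. Amy2a5, Cpa1 and Cpb1 passed it only through the Pb arrays, since their control values lay under percentile 30. The list was chosen on this contrast, so neither count nor median is evidence of it.

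Amy2a5, a pancreatic amylase, ranked 1 of the 34949 probes by log2 difference after position correction. Without the correction Cpa1 stood above it (7.93 against 7.43). In controls it was at -3.30, -4.28 and -4.01, which placed it between percentiles 2.4 and 6.2 of the array. Pb replicates 1 and 2 had 3.41 and 4.54, percentiles 88.3 and 94.7. Every Pb value was at least 6.71 above every control value. The log2 difference was 7.84 (SE 0.43, 3 control and 2 Pb arrays), a fold of 229. Control intensities as deposited were 0.111, 0.0577 and 0.0650, not far above the floor of 0.0332 to 0.0357 set on those arrays, so the size of the fold is uncertain.

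Amylase genes lie in a row on chromosome 3, and the pancreatic copies share long stretches of upstream sequence. The stretch shared with the Amy2a5 window without a mismatch was 162 bases for each of Amy2a2, Amy2a3 and Amy2a4 and 154 for Amy2a1. It was 7 to 8 for the starts of Amy1, the salivary and liver type. The windows compared here were longer than those printed above and ran past the annotated start, so a shared stretch can include transcribed bases. The pancreatic copies are also known to encode nearly identical transcripts, so the signal of the Amy2a5 probe cannot be assigned to 1 copy. A further probe, annotated for 5 of the copies at once, did not separate the groups (log2 difference 0.58, SE 0.50).

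Both carboxypeptidases were dim in controls and bright in the Pb arrays. Cpa1 was at -2.51, -1.91 and -2.98 in controls, and Pb replicates 1 and 2 had 4.11 and 4.91, a log2 difference of 6.97 (SE 0.38) and a fold of 126. Cpb1 was at -1.93, -2.67 and -1.68 in controls, against 3.21 and 3.48 in Pb, a log2 difference of 5.44 (SE 0.32). The groups lay 6.02 apart for Cpa1 and 4.89 apart for Cpb1 at their nearest values. Among all probes, Cpa1 ranked 3 and Cpb1 ranked 7 by log2 difference.

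The lipid-digesting genes with a probe of their own differed less and were not dim in controls. The probe shared by Pnliprp1 and Cdk12, outside this comparison, was dim in controls (percentiles 16.3 to 31.03) and differed by 6.26. Cel was at 0.24, 0.13 and 0.01 in controls, between percentiles 50.04 and 53.6, against 2.86 and 4.11 in Pb. Its log2 difference was 3.36 (SE 0.37), a fold of 10.2. Pla2g1b was at -0.19, -0.55 and -0.41 in controls, against 2.51 and 3.42 in Pb, with a log2 difference of 3.35 (SE 0.30). At their nearest values the groups lay 2.62 apart for Cel and 2.70 apart for Pla2g1b. The control SDs were 0.12 and 0.18 (n = 3), while the Pb arrays lay 1.25 and 0.91 from each other.

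Clps, the cofactor of pancreatic lipase, was bright on the control arrays already. It was at 2.61, 2.35 and 2.41 there, between percentiles 79.3 and 81.8, and had 4.01 and 4.03 in Pb, a log2 difference of 1.56 (SE 0.17) and a fold of 2.95. This value rests on the position correction. As deposited, the intensity of Clps was 7.26, 5.94 and 5.17 in controls, 12.04 in Pb replicate 1 and 6.09 in Pb replicate 2, which lies inside the control range, and the correction raised Pb replicate 2 by 1.42. Without the correction the log2 difference was 0.50. In Pb replicate 1, where the correction was 0.42, Clps was 1.55 above the control mean.

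Pnliprp2, a lipase related to pancreatic lipase that takes galactolipids and phospholipids as well as triglycerides, did not separate the groups. It was at -0.52, -0.73 and -0.36 in controls, with -0.39 and 0.09 in Pb, so Pb replicate 1 fell inside the control range. The log2 difference was 0.39 (SE 0.22). Here the correction worked the other way. As deposited, Pb replicate 2 stood at 6.59 against 0.521 to 0.693 in controls, and the correction lowered it by 2.63 on the log2 scale, so that without it the log2 difference was 2.07. Pb replicate 1 as deposited was 1.04, and 0.14 above the control mean after correction.

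**Figure D1:**
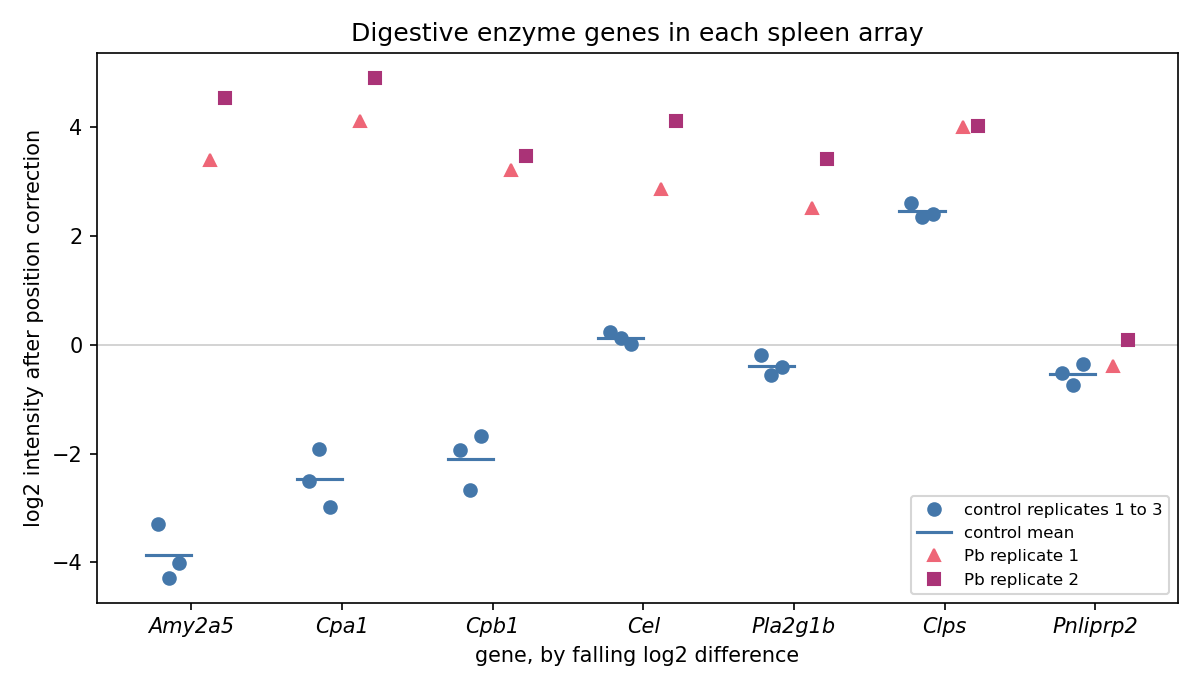
Log2 intensity after position correction (vertical axis) of the 7 measured genes (horizontal axis, by falling log2 difference), with a point for each array and a line at the control mean. Both Pb arrays stand above all controls for every gene but Pnliprp2, and Amy2a5, Cpa1 and Cpb1 start from the dimmest control values.

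The size of the difference varied between the Pb arrays. Pb replicate 2 was above Pb replicate 1 for all 7 genes, by 0.02 for Clps to 1.25 for Cel on the log2 scale. Amy2a5 was 7.27 above the control mean in Pb replicate 1 and 8.41 above it in Pb replicate 2, and Cpb1 was 5.30 and 5.57 above it. These gaps are small beside the differences from controls of Amy2a5, Cpa1 and Cpb1, and Pb replicate 2 is also the array with the widest scatter and the largest corrections, from -2.63 to 1.45 at the 7 probes (-0.45 to 0.42 in Pb replicate 1).

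The order of the log2 differences can be read only in part. Amy2a5, Cpa1 and Cpb1 (7.84, 6.97 and 5.44) stood above Cel and Pla2g1b (3.36 and 3.35), these above Clps (1.56), and that above Pnliprp2 (0.39). After correction Amy2a5 stood further above its control mean than Cpa1 in both Pb arrays, with SEs of 0.43 and 0.38. Its controls lay not far above the floor, and without the correction Cpa1 had the larger difference (7.93 against 7.43), so their order is not firm. Cel and Pla2g1b do not differ beyond their SEs. The 3 largest differences belong to the genes with the dimmest controls, and the control level enters the difference, so the order is not one of enzyme abundance.

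Probes that lie near the 7 on the array had log2 differences centred near 0. Within 1 array row and 3 columns there were 14 to 19 other probes for each gene, with a median log2 difference from -0.19 around Amy2a5 to 0.20 around Cpa1. The highest single neighbour of any of them reached 1.70, beside Pnliprp2, whose own value of 0.39 lay inside the range of its neighbours (-0.77 to 1.70). Around Clps, at 1.56, they reached 1.25. Since the surface is fitted to these neighbours too, medians near 0 are partly built in.

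**Figure D2:**
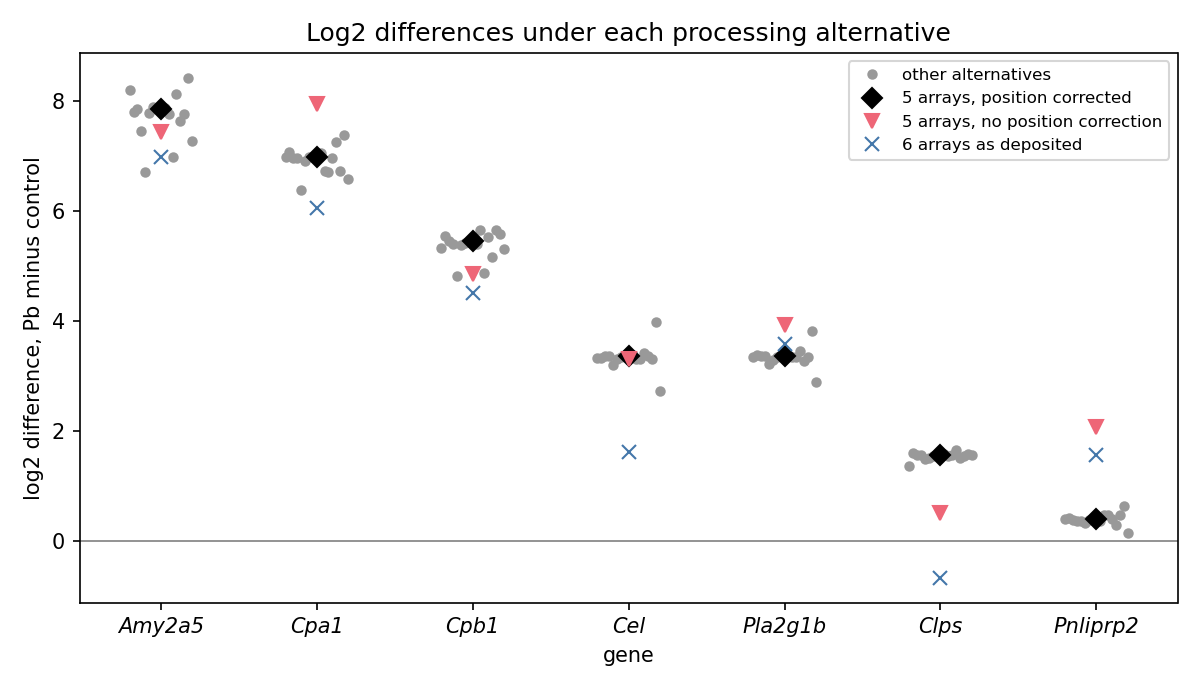
Log2 difference, Pb minus control (vertical axis), of each gene (horizontal axis) under the reported setting (diamond), without position correction (triangle), with all 6 arrays as deposited (cross) and under the other alternatives (grey). Amy2a5, Cpa1 and Cpb1 stay above 4 in every setting, whereas Clps falls to 0.50 without correction and to -0.67 with 6 arrays, and Pnliprp2 goes up to 2.07.

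Enzymes of the same classes that are made chiefly outside acinar cells were read from the same fit. Of 44 such genes measured, 36 passed the filter on dim probes, and in limma's moderated test with Benjamini-Hochberg adjustment over all 24464 probes kept 0 rose and 0 fell (at an unadjusted p under 0.05, 2 were higher and 3 lower). Of all probes kept, 0.0572% passed as higher and 0.00% as lower, 14 and 0 probes (962 higher and 806 lower at an unadjusted p under 0.05). Pb values lay wholly above the control values for 6 of the 44 (13.6%) and wholly below them for another 6, near the 13.0% and 11.9% over all probes.

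Among 16 lipases outside the list, Lpl, the lipoprotein lipase that clears fat from blood, was bright in spleen at 5.67, 5.84 and 5.70 in controls, against 6.03 and 5.67 in Pb (log2 difference 0.12, SE 0.19). As deposited, Lpl stood at 6.85 in Pb replicate 2 against 58.4 to 63.8 in controls. Without the correction its log2 difference was -1.81. Pnpla3 differed by -0.12 and Lipi by -1.19, with limma adjusted p of 0.91 and 0.621. Lipe, the hormone-sensitive lipase, lay under the filter, with a log2 difference of -1.21. The median of the 16 was 0.05, with a range from -1.21 to 0.91.

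Among 16 other phospholipases A2, the secreted Pla2g2d, made in lymphoid tissue, was at 3.99, 4.30 and 4.16 in controls, with 4.43 and 3.87 in Pb. Its log2 difference was 0.00 (SE 0.23), beside 3.35 for Pla2g1b. Pla2g15, the lysosomal enzyme, differed by -0.27 and Pla2g10, another secreted one, by -0.72 (limma adjusted p of 0.749 and 0.621). Pla2g2c lay under the filter and had the highest log2 difference of the 16, 0.80. The median of the 16 was 0.02.

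Among 12 other metallocarboxypeptidases the median was -0.09. Cpa4, which lies close to Cpa1 on chromosome 6, was at 2.91, 3.13 and 2.79 in controls and had 2.84 and 2.46 in Pb (log2 difference -0.29, SE 0.21). Cpa3, the carboxypeptidase of mast cells, was at -0.09, 0.46 and 0.53 in controls, and Pb had -0.47 and -0.58 (log2 difference -0.83). It lay outside the rule for named genes and is given because it is the nearest relative of Cpa1 in blood cells. Cpn1, a plasma enzyme, lay under the filter, with -1.71, and Cpd, of the trans-Golgi network, differed by -1.14 (limma adjusted p = 0.621). Cpq, the brightest of the 12 in controls, differed by -0.26 (limma adjusted p = 0.635).

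**Figure D3:**
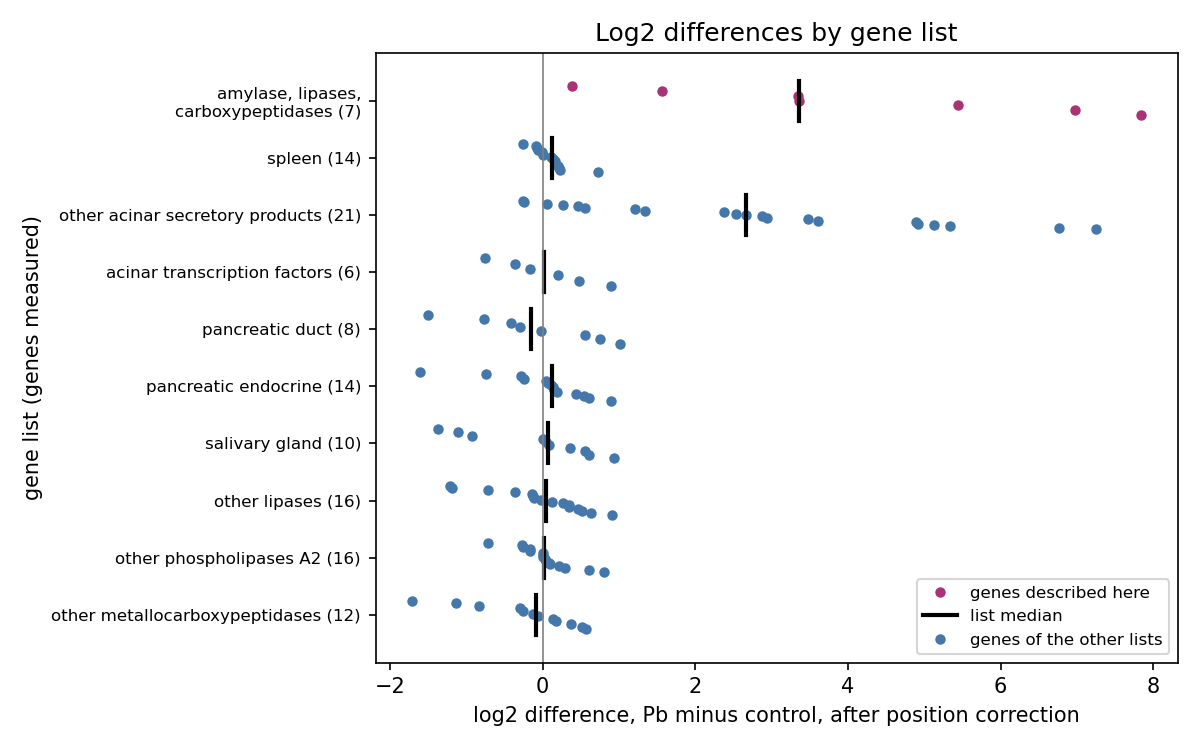
Log2 difference, Pb minus control (horizontal axis), of each measured gene in 10 gene lists (vertical axis, with the number measured), with the list median as a black bar. The 7 genes and the other acinar products spread to above 7, while the genes of the related enzyme families lie between -1.71 and 0.91.

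Other secreted products of acinar cells, the trypsins, chymotrypsins, elastases and granule proteins among them, were also higher in Pb for the most part. Of 28 listed, 21 were measured and 18 passed the filter. Of these 7 rose in the limma fit, 0 fell and 11 did not pass (14 higher and 0 lower at an unadjusted p under 0.05), where 0.0572% of all probes kept passed as higher. For 15 of the 21 (71.4%) the Pb values lay wholly above the control values after correction, a pattern shown by 13.0% of all probes. Reg1 and Cela1 count among them only through the correction. As deposited, Reg1 was 0.912 in Pb replicate 2, inside its control range of 0.412 to 0.946. Cela1 was 8.59 in Pb replicate 1, inside 8.07 to 10.2. The median log2 difference of the 21 was 2.66, and Cela1, the brightest of them in controls, had 1.21 (SE 0.39, limma adjusted p = 0.621). This list was also drawn up with earlier results known and is not independent evidence. Try5, a trypsin, and Cela3b, an elastase, had the largest values, 7.25 (SE 0.36) and 6.76 (SE 0.47), with limma adjusted p of 0.00877 and 0.0162. All control values of both lay under percentile 30, so they passed the filter, and were tested, only through the Pb arrays, and their calls are no support. Counted over all lists, the 7 that rose became 2 when control replicate 1 or 3 was left out, 1 when control replicate 2 was, and 23 when Pb replicate 1 was. It became 0 without position correction, 0 with no filter on dim probes and 2 with array weights, so these calls depend on single arrays and on the setting.

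The genes whose profile over the 5 arrays was nearest to the median of the 7 were all acinar products. By root mean square distance of the control-centred log2 values they were Ctrl (0.23), Prss3 (0.32), Reg1 (0.46), Sycn (0.50) and Rnase1 (0.63). Ctrl, a chymotrypsin-like protease, stood 2.97 above its control mean in Pb replicate 1, where the median of the 7 genes stood at 2.89. The median profile holds the contrast on which the 7 genes were chosen, so nearness to it is a description and no support.

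Genes that control acinar cells or belong to other tissues were looked at beside these values. In 9 lists with 78 measured genes, 44 passed the filter, and 0 rose and 0 fell in the limma fit (5 higher and 0 lower at an unadjusted p under 0.05). Pb values lay wholly above the control values for 14 of the 78 (17.9%), against 13.0% of all probes. The adipocyte list had the highest median log2 difference of the 9, 0.53 over 7 genes. Of these 6 were above 0, Lep was at -0.63, and the smallest limma adjusted p was 0.621. Its largest difference was that of Thrsp, which stood 0.51 above the control mean in Pb replicate 1 and 1.34 in Pb replicate 2. Ptf1a and Bhlha15, transcription factors of acinar cells, lay under the filter, with log2 differences of -0.75 and 0.89, and Rbpjl, the acinar partner of Ptf1a, was at 1.40 to 1.55 in controls, with 1.79 and 2.09 in Pb (0.48, SE 0.18, limma adjusted p = 0.621). Cckar, a receptor for cholecystokinin, differed by 0.26.

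Of 18 listed pancreatic endocrine genes 14 were measured, and the insulin genes Ins1 and Ins2, Iapp and Pcsk2 were not among them. The summed linear intensity of the 14 was 14.96 to 20.8 in controls and 19.5 and 19.8 in Pb. Their median log2 difference was 0.12. Abcc8 made up the largest part of the sum, at 2.73 to 3.59 in controls and 3.38 and 3.17 in Pb. Gcg, the gene of glucagon, was dim in all arrays, at -3.51, -2.32 and -1.87 in controls and -3.74 and -4.59 in Pb. The sums were 4.24 to 5.77 in controls against 5.20 and 6.16 for 8 pancreatic duct genes, and 21.5 to 27.3 against 32.5 and 16.9 for 10 salivary gland genes. Most of the salivary gland sum came from Smr2, at 4.07 to 4.48 in controls and 4.74 and 3.69 in Pb. By contrast, the sum of the 21 other acinar products was 21.7 to 23.8 in controls against 160 and 230 in Pb. No list gene has a true 0 on this scale. The part of acinar, duct or endocrine cells in the values of the 7 genes was not tested.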

How the data were processed

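The authors deposited 1 table of probe intensities on a linear scale with array medians near 1 (0.972 to 0.987), from which the values appear to be scaled to a median per array. No label or header names the scanner software, a background correction or a normalisation. Of 35587 probes, 21615 had 1 symbol in the platform annotation, 681 several and 13291 none listed. Before log2, the 151 to 711 values per array at or under 0 were set to percentile 1 of the positive values there. Probes of array rows 402 to 409 and Pb replicate 3 were left out. Position was corrected by subtracting from each array a smooth surface of its deviation from a reference, the average over Pb replicate 1 and the 3 controls. It was fitted in 2 rounds with bam of mgcv 1.9.3, on array row by level and array row by array column (40 basis functions for row, 6 for level, 8 for column). limma 3.58.1 in R 4.3.3 was fitted to the 24464 probes at or above the 30th percentile of mean log2 intensity (two-sided, Benjamini-Hochberg, threshold 0.05). The steps were tested on simulated data in which only probes at or above the median control level were changed. That test did not cover genes as dim in controls as Amy2a5, Cpa1 and Cpb1. For a gene with several probes, the one with the highest mean was used. Genes named are all measured members and, per other list, the 2 largest absolute differences and the 2 highest control means, with the 5 nearest profiles. Not all of those from the other lists are printed. The members, lists and alternatives were chosen with earlier results of these data known. No detection calls were used, and the number of arrays limits the precision. Replicate numbers did not mark paired animals in the labels, and same-numbered arrays deviated from their group means with r = 0.03 and 0.00.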

Additional observations from a re-analysis of the deposited data

Results flagged for a closer look

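A probe outside the comparison, because the annotation lists it for both Pnliprp1 and Cdk12, was brighter in Pb. It stood at -2.39, -1.67 and -1.37 in controls and at 4.44 and 4.45 in Pb replicates 1 and 2, a log2 difference of 6.26, and the array does not tell which of the genes it reads.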

How the results depend on the processing

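The count of 6 of 7 genes with both Pb arrays above all controls lay between 5 and 7 in 15 alternatives. The 5 came from all 6 arrays as deposited, where it counts genes with all 3 Pb arrays above. With 1 array left out it was 6 to 7. Without position correction it was again 6, but not for the same genes. There Clps dropped out (6.09 in Pb replicate 2, 7.26 in control replicate 1), and Pnliprp2 came in (1.04 and 6.59 in Pb, at most 0.693 in controls). The median log2 difference of 3.36 became 3.92 without position correction and 2.89 to 3.98 with 1 array left out. Clps was the only gene of the 7 to change sign, to -0.67 in the 6 arrays as deposited, which include the array whose values did not follow the probes. Among the 6 arrays as deposited, the 14 probes past the adjusted threshold and the 7 list genes that rose became 0 and 0. They became 0 and 0 when position was not corrected, 0 and 0 when dim probes were kept, and 7 and 2 with array weights. With 1 array left out they were 4 to 2745 probes and 1 to 23 list genes, and list genes that fell were 0 to 6 in place of 0. The highest of each came without Pb replicate 1, with the wider Pb replicate 2 as the lone Pb array, assumed to vary like the controls. With the replicate block the probes were 11, the list genes 6 and the median 3.34, and no count moved by over 1.5 times. The surface against the 3 controls alone was added after the data were seen. The mean over several probes could not alter the 7 genes, which have 1 probe each. Apart from fewer arrays leaving fewer degrees of freedom, the cause was not tested. Dim control values, without detection calls, limit the folds of Amy2a5, Cpa1 and Cpb1.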

Other observations

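The annotation lists 1 further amylase probe for 5 symbols at once (Amy2a1 to Amy2a5), and it did not behave like the Amy2a5 probe. It was at -1.34, -1.55 and -1.94 in controls and at -1.87 and -0.19 in Pb replicates 1 and 2, so Pb replicate 1 lay inside the control range, and its log2 difference was 0.58 (SE 0.50) beside 7.84 for the probe of Amy2a5 alone. A probe listed for Amy1 and Nras was at -0.62, -0.27 and -0.23 in controls and at -0.49 and 0.34 in Pb (log2 difference 0.30, SE 0.29). Neither probe names a single gene. Why both amylase probes of the Amy2a copies differ was not tested.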
